A study of Mus musculus with 11 samples.

Results

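The genes described are 31 members of the p53 pathway, chosen by symbol: Trp53, which encodes p53 itself, and 30 genes taken as regulators or targets of p53. Whether p53 raises each of them in these mouse cells was not tested. All 31 were among the 24718 genes of the deposited table, and all 31 were among the 17838 genes with enough reads to be tested. They were measured by bulk RNA-seq in marrow mesenchymal stem and progenitor cells of 11 female mice, 8 weeks after doxorubicin or saline. No member reached an adjusted p under 0.05, the threshold used for the quasi-likelihood test of edgeR, in any of the 3 comparisons, where the share of all tested genes that passed was 0.146% for DOX4X against PBS and 0.00561% for each of DOX1X against PBS and DOX4X against DOX1X. The levels of Mdm2, a standard readout of p53 activity, differed by no more than 1.17-fold between any 2 of the 11 libraries, the least of any member. Those of Cdkn1a, another direct target, differed by up to 2.21-fold, and the median over the 31 members was 1.69-fold.

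All mice carried Lepr-Cre;LSL-tdTomato+/-. Cre recombinase made from the leptin receptor gene turns the red tdTomato reporter on for good in these mice, so sorted cells can include descendants that no longer express Lepr. The DOX4X group comprised 4 mice, aged 8 to 10 weeks at treatment, that received 4 intravenous doses of doxorubicin at 5 mg/kg with 1 week between doses. The DOX1X group comprised 3 young adult mice given 1 intravenous dose at 10 mg/kg. The PBS group comprised 4 mice injected 4 times with phosphate-buffered saline by the same route, for which the labels state no age. Doxorubicin is an anthracycline that traps topoisomerase II on DNA and breaks the DNA. All libraries were taken 8 weeks after treatment.

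p53 is a transcription factor held at a low level by Mdm2, a ubiquitin ligase that marks it for destruction, and by the related protein Mdm4. DNA damage activates the kinases Atm, Atr, Chek2 and Chek1, which free p53 from these inhibitors, and p53 then raises genes that stop the cell cycle, repair DNA or kill the cell. Much of this control acts on the p53 protein, so Trp53 mRNA need not move when the pathway is active, whereas Mdm2 and Cdkn1a are direct targets whose mRNA follows p53. Marrow stromal cells that express the leptin receptor are a main source of the niche factors Cxcl12 and Kitl, and few of them divide in adult marrow.

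p53 binds a pair of half-sites that may stand a few bases apart. The stretches below lie within 250 bases before the annotated start of genes described in detail (RefSeq, build GRCm38.p6, each strand read 5′ to 3′). Each holds at least 1 match to a half-site, and only the Cdkn1a stretch holds a pair. Whether p53 binds these stretches was not tested. Capitals mark each match to the p53 half-site consensus, which reads the same on both strands.
Trp53, chr11:69580254-69580323, + strand: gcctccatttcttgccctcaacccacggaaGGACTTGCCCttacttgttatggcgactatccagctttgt
Mdm2, chr10:117710905-117710974, - strand: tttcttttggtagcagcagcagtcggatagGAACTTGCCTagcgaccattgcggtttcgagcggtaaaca
Cdkn1a, chr17:29090876-29090967, + strand: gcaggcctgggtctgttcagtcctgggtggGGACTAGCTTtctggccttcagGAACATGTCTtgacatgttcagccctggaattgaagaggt
Ccng1, chr11:40755432-40755501, - strand: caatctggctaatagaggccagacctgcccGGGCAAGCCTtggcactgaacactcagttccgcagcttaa
Ei24, chr9:36797335-36797374, - strand: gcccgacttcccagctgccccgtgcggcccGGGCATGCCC

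The Cdkn1a window is at the upstream of its 2 annotated starts, which lie 2790 bases apart. It held 2 half-site matches close enough to count as a full site here. Only exact matches were marked, and which bases p53 binds was not tested. Of the 31 members, 23 were found in the promoter table, with 32 windows. A half-site lay in at least 1 window of 10 of these 23 genes (43.5%), against 8.20% of all 27025 genes with a window. A full site, with at most 13 bases between its half-sites, was found in Cdkn1a alone among the members and in 18 genes of all. A match is a description of the letters. Neither window of Psrc1 held one, and p53 is known to bind many of its targets outside such short windows.

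Total counts lay between 31129352 and 36888310 in DOX4X libraries, between 33496356 and 42002065 in DOX1X and between 29540422 and 42784036 in PBS. Defining markers of these stromal cells were present in every library, with Lepr between 3939 and 7661 CPM (read counts scaled to library size with TMM factors) and Cxcl12 between 46059 and 59804 CPM. Features of 2 kinds bear on every comparison. The library called PBS 4 is labelled as PBS-treated but its title starts with DOX, so values without it are given where they matter. By the column names, flow cell 1 carried all 4 PBS libraries with DOX1X 1 and 2, while flow cell 2 carried all 4 DOX4X libraries with DOX1X 3, so flow cell and group cannot be told apart between DOX4X and PBS except through the DOX1X libraries. A flow cell term in a fit therefore rests on DOX1X 3 against DOX1X 1 and 2. With that term, DOX1X against PBS sets DOX1X 1 and 2 against PBS, and DOX4X against DOX1X sets DOX4X against DOX1X 3 alone. Summed CPM of blood-cell markers was higher on average in both doxorubicin groups. The sum of 8 erythroid markers ranged over 345 to 883 CPM in DOX4X, 249 to 674 in DOX1X and 176 to 505 in PBS. The sum of 7 B lineage markers ranged over 59.5 to 171 CPM in DOX4X, 55.5 to 83.4 in DOX1X and 27.0 to 62.7 in PBS. The sum of 8 endothelial markers ranged over 376 to 731 CPM in DOX4X, 125 to 266 in DOX1X and 82.9 to 453 in PBS. Osteoblast markers averaged lower in both doxorubicin groups. The sum of 6 averaged 7679 ± 914 CPM in DOX4X (SD, n = 4), 10761 ± 2270 in DOX1X (n = 3) and 11883 ± 2588 in PBS (n = 4), with 5 of the 6 below PBS in DOX4X and none called. The sum of 5 mural markers averaged 781 ± 323 CPM in DOX4X, 422 ± 193 in DOX1X and 691 ± 447 in PBS. No marker of these lists was at 0 in every library, and the part of these cells in the members' values was not tested.

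The factor and its feedback loop come first. Trp53 stood at 108, 110, 86.6 and 99.3 CPM in DOX4X libraries 1 to 4, at 93.0, 105 and 87.5 CPM in DOX1X libraries 1 to 3, and at 102, 110, 91.3 and 79.9 CPM in PBS libraries 1 to 4. The 3 groups overlapped throughout, and the log2 fold change was 0.072 (SE 0.11, adjusted p = 0.833) for DOX4X against PBS and -0.011 (SE 0.12, adjusted p = 0.989) for DOX1X against PBS. Mdm2 stood at 68.0, 61.1, 62.8 and 65.4 CPM in DOX4X, at 67.8, 59.4 and 61.5 CPM in DOX1X, and at 58.3, 59.1, 67.1 and 68.3 CPM in PBS. Its lowest and its highest library were both PBS libraries. The fold change of Mdm2 for DOX4X against PBS had a 95% interval of 0.906 to 1.14, which ends below 1.5-fold.

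Ccng1, which encodes cyclin G1, a strongly p53-dependent gene whose product helps Mdm2 restrain p53, was the member with the smallest p. It stood at 103, 101, 97.2 and 97.0 CPM in DOX4X, at 114, 116 and 110 CPM in DOX1X, and at 115, 106, 113 and 122 CPM in PBS. Every DOX4X library lay below every library of both other groups, while DOX1X and PBS overlapped. The log2 fold change was -0.20 for DOX4X against PBS (SE 0.062, unadjusted p = 0.0082, adjusted p = 0.208 by edgeR) and -0.19 for DOX4X against DOX1X (SE 0.066, unadjusted p = 0.016, adjusted p = 0.924). For DOX1X against PBS it was -0.0086 (SE 0.066). Without PBS 4 the value for DOX4X against PBS was -0.16, and within flow cell 2, where only DOX1X 3 could be set against DOX4X, it was -0.14 (SE 0.11) for DOX4X against DOX1X. With flow cell as a term the value for DOX4X against PBS was -0.13 (unadjusted p = 0.321). The remaining 2 genes of the loop overlapped between groups: Mdm4 ranged over 63.3 to 67.4 CPM in DOX4X, 61.6 to 91.6 in DOX1X and 48.0 to 82.9 in PBS. Within flow cell 2, against DOX1X 3 alone, the log2 fold change of Mdm4 in DOX4X was -0.48. Trp53inp1, whose nuclear protein binds p53, ranged over 53.8 to 88.7 CPM in DOX4X, 76.0 to 91.1 in DOX1X and 65.3 to 90.5 in PBS.

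**Figure D1:**
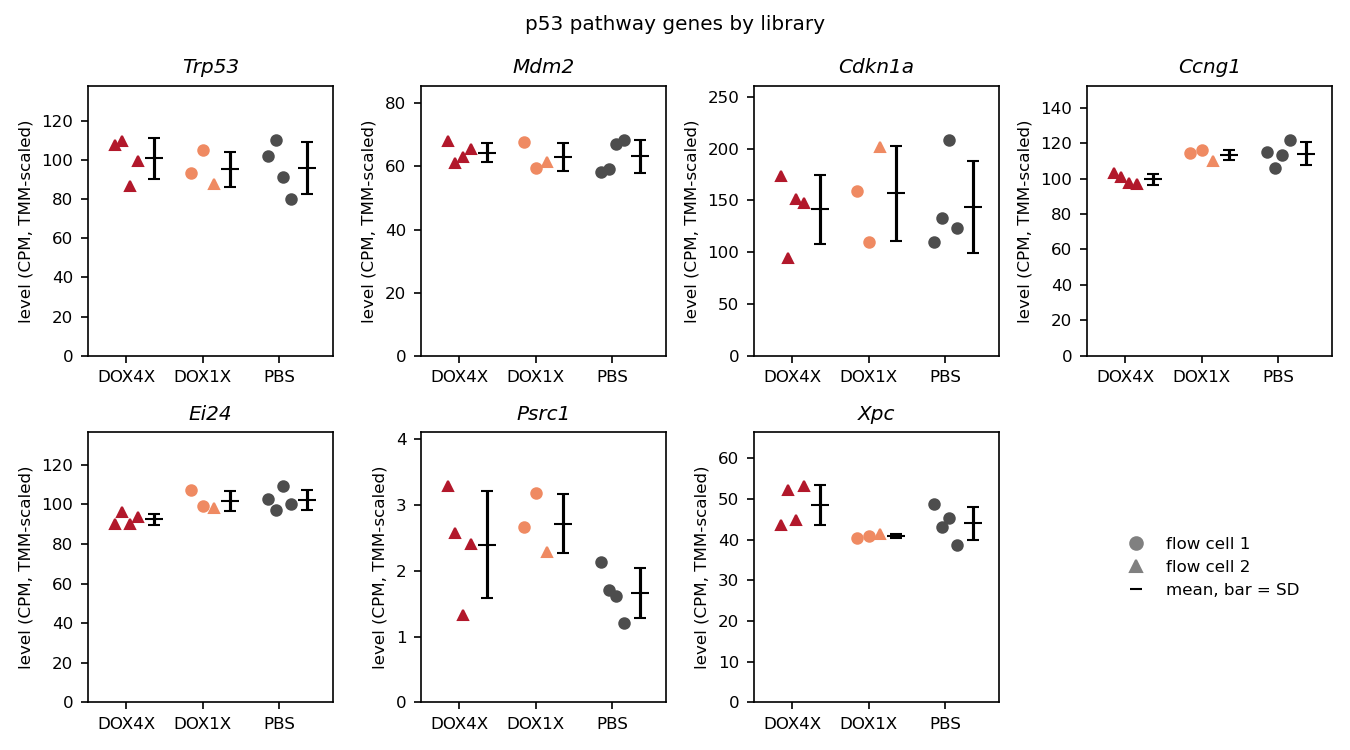
Level of 7 members in every library, in CPM scaled by TMM factors (y axis from 0), for DOX4X, DOX1X and PBS; each point is a mouse, its shape the flow cell, and the bar beside each group is mean ± SD. All DOX4X points of Ccng1 lie below all PBS points (103 CPM at most against 106 at least), whereas the points of Trp53, Mdm2 and Cdkn1a overlap between the 3 groups.

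Among genes that slow or stop the cell cycle, Cdkn1a encodes p21, the inhibitor of cyclin-dependent kinases through which p53 arrests cells. It stood at 173, 94.1, 151 and 147 CPM in DOX4X, at 159, 110 and 201 CPM in DOX1X, and at 110, 133, 208 and 124 CPM in PBS. Its libraries spread 2.21-fold from lowest to highest, and the highest was PBS 3. Its log2 fold change was -0.022 for DOX4X against PBS (SE 0.24, adjusted p = 0.981) and 0.13 for DOX1X against PBS (SE 0.26, adjusted p = 0.927). The 95% interval of the fold for DOX4X against PBS ran from 0.682 to 1.42, so the data bound p21 mRNA less tightly than Mdm2. With flow cell as a term the log2 value became -0.60 for DOX4X against PBS (SE 0.45, unadjusted p = 0.210), which also did not pass.

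Psrc1 encodes a spindle protein with a role in chromosome alignment. In the fit of all libraries with group means alone, it was the only member with an unadjusted p under 0.05 in DOX1X against PBS. It stood at 3.28, 2.57, 1.32 and 2.40 CPM in DOX4X, at 2.67, 3.18 and 2.29 CPM in DOX1X, and at 2.13, 1.702, 1.62 and 1.201 CPM in PBS, from 36 to 119 reads a library. Every DOX1X library lay above every PBS library, and DOX4X overlapped with both. On the log2 scale the fold change was 0.70 for DOX1X against PBS (SE 0.31, unadjusted p = 0.041, adjusted p = 0.675 by edgeR) and 0.52 for DOX4X against PBS (SE 0.29, unadjusted p = 0.094). Within flow cell 1, with DOX1X 1 and 2 against PBS, it was 0.81 (SE 0.30), and without PBS 4 it was 0.57 for DOX1X against PBS (unadjusted p = 0.098). With a score of blood-cell markers as a term it was 0.42 for DOX1X against PBS (SE 0.40, unadjusted p = 0.321). Across the 11 libraries Psrc1 followed that score with r = 0.66 (permutation p = 0.029, adjusted p = 0.443 over the 31 members) and rho = 0.74 (permutation p = 0.012, adjusted p = 0.320). The r was 0.53 without DOX1X 1 and DOX4X 1, the libraries farthest from the median score, and 0.63 within flow cell 1. In sorted bulk RNA, fewer cells of a type and less RNA per cell cannot be told apart, and the part of other marrow cells in the Psrc1 difference was not tested further.

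The other 4 genes of this role did not reach an unadjusted p under 0.05 in any comparison in the fit of all libraries with group means alone. Btg2, an antiproliferative gene that serum and tissue handling also induce, ranged over 263 to 366 CPM in DOX4X, 269 to 430 in DOX1X and 209 to 319 in PBS. Its log2 fold change was 0.34 in DOX4X against PBS and 0.37 in DOX1X against PBS, with adjusted p = 0.429 and 0.723. Gadd45a, a stress sensor that binds PCNA and p21, ranged over 29.7 to 44.3 CPM in DOX4X, 39.3 to 50.9 in DOX1X and 32.5 to 52.3 in PBS. The polo-like kinase Plk2 ranged over 36.6 to 55.5 CPM in DOX4X, 31.6 to 59.95 in DOX1X and 39.7 to 47.3 in PBS. With flow cell as a term its log2 fold change was -0.74 for DOX4X against PBS (SE 0.28, edgeR unadjusted p = 0.022, adjusted p = 0.429). Within flow cell 1 it was -0.34 for DOX1X against PBS (SE 0.11, edgeR unadjusted p = 0.014, adjusted p = 0.512). Plk3 ranged over 6.19 to 8.51 CPM in DOX4X, 5.25 to 6.90 in DOX1X and 4.64 to 11.8 in PBS.

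The 10 genes with roles in cell death include mitochondrial effectors, surface receptors and a nuclease. Ei24 encodes an endoplasmic reticulum protein also called PIG8. It was the only one of the 10 with an unadjusted p under 0.05 in the fit of all libraries with group means alone. It stood at 90.2, 95.9, 90.2 and 93.7 CPM in DOX4X, at 107, 99.0 and 98.1 CPM in DOX1X, and at 102, 97.1, 109 and 100.2 CPM in PBS. As for Ccng1, every DOX4X library lay below every DOX1X and every PBS library. The log2 fold change was -0.14 for DOX4X against PBS (SE 0.062, unadjusted p = 0.040, adjusted p = 0.337 by edgeR) and -0.13 for DOX4X against DOX1X (SE 0.067, unadjusted p = 0.069). It was -0.15 without PBS 4, and -0.070 (SE 0.13) with flow cell as a term. Within flow cell 2 it was -0.082 for DOX4X against DOX1X (SE 0.11).

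The mitochondrial death genes overlapped between the groups in every comparison. Bax, the pore-forming effector, ranged over 47.0 to 52.6 CPM in DOX4X, 44.5 to 58.3 in DOX1X and 40.3 to 50.7 in PBS. Bbc3, which encodes PUMA, ranged over 5.50 to 8.96 CPM in DOX4X, 8.64 to 10.0 in DOX1X and 8.31 to 9.14 in PBS. For Bbc3 the log2 fold change was -0.23 for DOX4X against PBS (adjusted p = 0.556) and -0.32 for DOX4X against DOX1X (unadjusted p = 0.076). Pmaip1, which encodes NOXA, ranged over 4.63 to 10.2 CPM in DOX4X, 3.73 to 9.52 in DOX1X and 3.60 to 9.81 in PBS.

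The death receptors and the remaining genes of this role overlapped between the groups as well. Fas ranged over 20.7 to 26.0 CPM in DOX4X, 18.6 to 23.6 in DOX1X and 17.2 to 22.5 in PBS. Tnfrsf10b, the mouse TRAIL receptor, and Eda2r, the receptor of the ectodysplasin isoform A2, were close to the detection limit, with 14 to 50 and 7 to 70 reads a library. Tnfrsf10b ranged over 0.817 to 1.504 CPM in DOX4X, 0.538 to 1.26 in DOX1X and 0.467 to 1.201 in PBS. Eda2r ranged over 0.991 to 1.91 CPM in DOX4X, 0.563 to 1.47 in DOX1X and 0.234 to 1.42 in PBS, and its log2 fold change for DOX4X against PBS was 0.59 (SE 0.47, adjusted p = 0.625). Perp, which encodes a membrane protein of epithelial cell contacts, had the widest spread in all 3 groups, with a coefficient of variation of 44.2% in DOX4X, 72.2% in DOX1X and 82.9% in PBS. Its range was 1.24 to 4.54 CPM in DOX4X, 1.199 to 3.84 in DOX1X and 1.17 to 9.21 in PBS. Aen, a nuclease that digests DNA in dying cells, ranged over 19.5 to 24.1 CPM in DOX4X, 17.2 to 19.8 in DOX1X and 19.4 to 21.4 in PBS. Phlda3, an inhibitor of Akt signalling, ranged over 66.7 to 78.4 CPM in DOX4X, 68.8 to 89.9 in DOX1X and 63.2 to 80.5 in PBS.

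**Figure D2:**
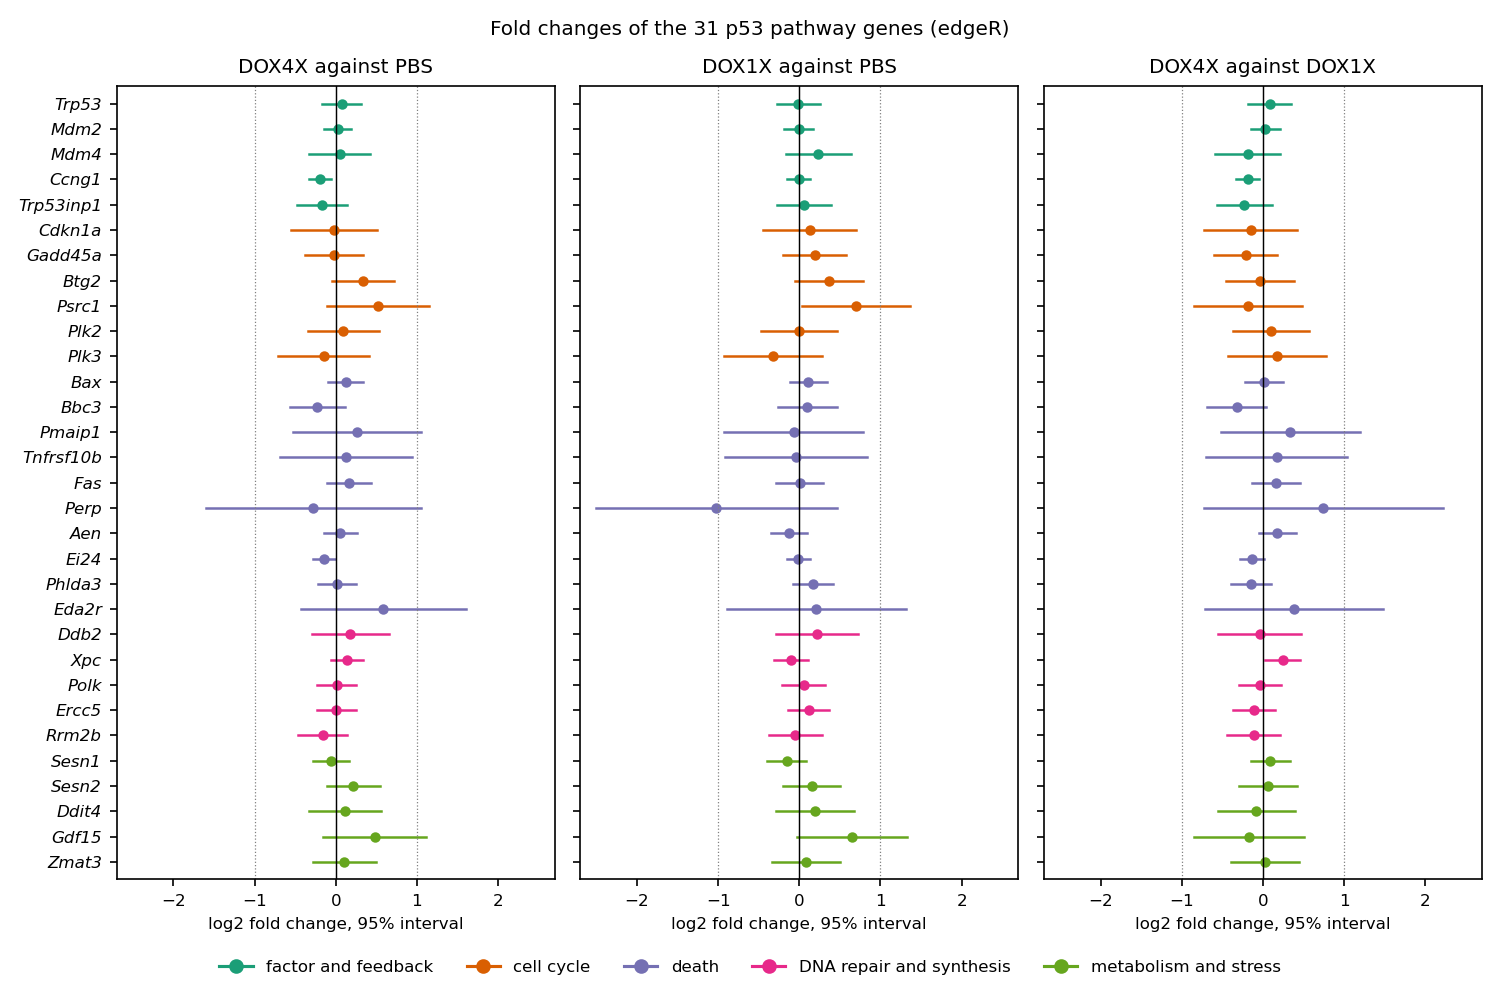
Log2 fold change (point) and 95% interval (line) of the 31 members in edgeR, grouped by role, for DOX4X against PBS, DOX1X against PBS and DOX4X against DOX1X; dotted lines mark 2-fold. Most intervals include 0 and lie within 2-fold; those of Psrc1, Pmaip1, Perp, Eda2r and Gdf15 reach beyond 2-fold for DOX4X against PBS.

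Of the 5 genes of DNA repair and synthesis, Xpc, which encodes the damage sensor that starts global nucleotide excision repair, differed between the doxorubicin groups before correction. It stood at 43.7, 52.3, 44.8 and 53.1 CPM in DOX4X, at 40.4, 41.0 and 41.5 CPM in DOX1X, and at 48.7, 43.2, 45.4 and 38.8 CPM in PBS. Every DOX4X library lay above every DOX1X library, and PBS overlapped with both. For DOX4X against DOX1X the log2 fold change was 0.24 (SE 0.097, unadjusted p = 0.028, edgeR adjusted p = 1.00), and within flow cell 2 it was 0.23 (SE 0.15, unadjusted p = 0.169). The DOX1X libraries of Xpc differed by a coefficient of variation of 1.23%, the lowest of any member in any group. Ddb2, which works with Xpc in finding damage, ranged over 6.20 to 8.42 CPM in DOX4X, 5.31 to 9.65 in DOX1X and 4.84 to 8.61 in PBS. The other 4 genes of this role overlapped between groups in every comparison. The nuclease Ercc5 ranged over 21.7 to 28.01 CPM in DOX4X, 26.4 to 27.3 in DOX1X and 21.1 to 26.7 in PBS. The translesion polymerase Polk ranged over 39.8 to 53.1 CPM in DOX4X, 47.3 to 50.1 in DOX1X and 40.4 to 56.3 in PBS. Rrm2b, the p53-inducible subunit of ribonucleotide reductase, ranged over 20.8 to 30.04 CPM in DOX4X, 26.5 to 34.1 in DOX1X and 27.0 to 34.5 in PBS.

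The 5 genes of metabolism and stress overlapped between groups in every comparison. Gdf15, a secreted stress cytokine used as a marker of tissue damage, depended most on the PBS library whose title and label differ. It stood at 3.91, 3.16, 3.79 and 2.81 CPM in DOX4X, at 2.98, 3.76 and 4.81 CPM in DOX1X, and at 1.67, 2.10, 1.94 and 4.10 CPM in PBS, from 60 to 183 reads a library. PBS 4 was above every DOX4X library, and the other 3 PBS libraries were below every library of both doxorubicin groups. Its log2 fold change was 0.48 for DOX4X against PBS (SE 0.29, unadjusted p = 0.126) and 0.65 for DOX1X against PBS (SE 0.31, unadjusted p = 0.058). Without PBS 4 it was 0.84 for DOX4X against PBS (SE 0.23, unadjusted p = 0.0040, adjusted p = 0.148 by edgeR) and 1.02 for DOX1X against PBS (SE 0.24, unadjusted p = 0.0017, adjusted p = 0.274), and neither passed. These are the smallest p-values of any member without that library, and Gdf15 is given library by library because of them, after its values were seen. Ddit4 and the sestrins Sesn1 and Sesn2 restrain the growth kinase mTORC1. Ddit4 ranged over 44.9 to 87.9 CPM in DOX4X, 55.6 to 66.2 in DOX1X and 42.0 to 64.0 in PBS. Sesn1 ranged over 33.5 to 39.0 CPM in DOX4X, 33.6 to 34.96 in DOX1X and 34.6 to 46.6 in PBS. Sesn2 ranged over 19.4 to 28.3 CPM in DOX4X, 20.8 to 23.8 in DOX1X and 17.2 to 26.0 in PBS. Zmat3, an RNA-binding protein that p53 induces, ranged over 5.20 to 7.94 CPM in DOX4X, 5.70 to 6.73 in DOX1X and 4.74 to 7.11 in PBS.

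**Figure D3:**
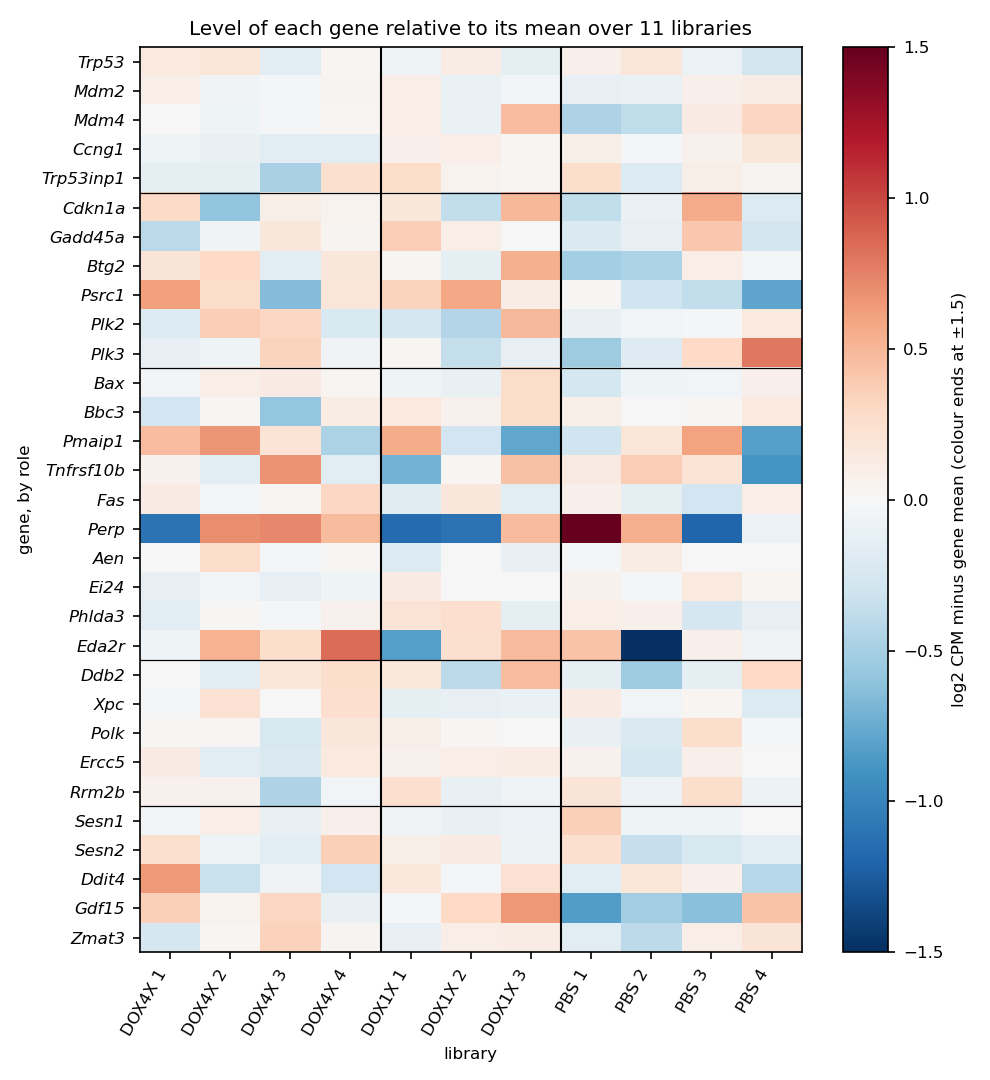
Log2 CPM of each member (rows, by role) minus its mean over the 11 libraries, with DOX4X, DOX1X and PBS libraries as columns; red is above and blue below the gene's mean, and the colour scale ends at ±1.5. No block of rows is red in one group throughout, and the strongest colours belong to Perp and Eda2r, which spread 7.90-fold and 8.16-fold between their lowest and highest library.

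Counted together for DOX4X against PBS, 0 of the 31 members were called, against 26 of 17838 genes (0.146%), all lower, by edgeR. At an unadjusted p under 0.05 there were 2 members, Ccng1 and Ei24, both lower, against 13.9% of all genes tested (6.00% higher and 7.85% lower). DESeq2 called 0 members (4.02% of genes with an adjusted p) and also put 2 under an unadjusted 0.05 (15.1% of all genes). Groups did not overlap for the same 2 members, against 7.85% of all genes without overlap, 3.17% higher and 4.68% lower. The log2 fold change was above 0 for 21 members and below 0 for 10, with a median of 0.058, while 52.2% of all genes were above 0 with a median of 0.014. Fitted folds of the members lay between 0.827 and 1.503. The whole 95% interval lay within 1.5-fold for 22 members and within 2-fold for 26, and outside 2-fold were Psrc1, Pmaip1, Perp, Eda2r and Gdf15, whose highest level in any library was 10.2 CPM. With 1 library left out at a time, the number of genes called ran from 0 (without DOX4X 1, 2 or 3) to 80 (without PBS 4), with 47 without DOX1X 3, and 0 members were called each time. Without PBS 4, 3 members had an unadjusted p under 0.05, with Gdf15, higher, beside Ccng1 and Ei24, against 15.5% of all genes in that fit. With the score of immediate early genes as a term there were 5, Btg2, Ccng1, Ddb2, Gdf15 and Mdm4, against 14.8% of all genes. The members' median was 0.12 without PBS 3 and -0.034 with flow cell as a term.

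For DOX1X against PBS, 0 of 31 members were called, against 1 of 17838 genes (0.00561%). At an unadjusted p under 0.05 there was 1 member, Psrc1, which was higher, against 7.16% of all genes, 3.42% higher and 3.74% lower. DESeq2 called 0 members (0.312% of genes with an adjusted p) and put 2 under an unadjusted 0.05 (7.90% of all genes). Psrc1 was also the only member whose groups did not overlap, against 7.00% of all genes without overlap, 3.18% higher and 3.82% lower. The log2 fold change was above 0 for 18 members and below 0 for 13, with a median of 0.060, against 0.0057 over all genes. Without PBS 2 the members' median was -0.0083. Without PBS 4, 2 members had an unadjusted p under 0.05, Gdf15 and Mdm4, both higher, against 11.2% of all genes in that fit, and 0 were called, against 0.0113%. Fitted folds of the members lay between 0.493 and 1.63. The whole interval lay within 2-fold for 27 members, all but Psrc1, Perp, Eda2r and Gdf15. Within flow cell 1, 4 members had an unadjusted p under 0.05, against 8.04% of all genes in that fit, and 0 were called, against 0.0287%. Psrc1 and Phlda3 were higher there and Plk2 and Perp lower, with log2 fold changes of 0.27 (SE 0.12) for Phlda3 and -1.80 (SE 0.76) for Perp. The comparisons of DOX4X and DOX1X with PBS share the 4 PBS libraries, so like values in both are not independent.

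For DOX4X against DOX1X, which compares 2 schedules that differ in dose, number of doses and flow cell, 0 of 31 members were called, against 1 of 17838 genes (0.00561%). At an unadjusted p under 0.05 were Ccng1, lower, and Xpc, higher, against 4.36% of all genes (2.23% higher and 2.13% lower), and DESeq2 called 0 (0.152% of genes with an adjusted p) and put 2 under an unadjusted 0.05 (4.86% of all genes). Groups did not overlap for Ccng1 and Ei24, lower in DOX4X, and for Xpc, higher in DOX4X, against 5.98% of all genes, 2.79% lower and 3.19% higher. For 15 members the log2 fold change was above 0, against 49.7% of all genes, and its median was -0.032 for the members and -0.0011 for all genes. The members' median was 0.026 without DOX1X 3 and 0.0079 without DOX4X 2. Fitted folds of the members lay between 0.799 and 1.68. The whole interval lay within 2-fold for 27 members.

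The members differed among themselves in how tightly the mice held them. The median coefficient of variation was 15.3% in DOX4X, 13.6% in DOX1X and 15.1% in PBS. From the lowest to the highest of the 11 libraries the level differed by less than 2-fold for 21 members and by more than 3-fold for 3. Reads limit 4 members, with fewer than 50 in at least 1 library, whereas 21 members had more than 500 in every library. Mdm4 was the tightest member in DOX4X (2.57%) and Aen the tightest in PBS (4.44%). For 4 members, Mdm4, Gadd45a, Ddb2 and Rrm2b, another counted gene overlaps the locus, and since the library kit does not mark strand, their reads may be shared with that neighbour.

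Several members are also induced when tissue is digested, so each was compared with a score of 10 immediate early genes such as Fos and Egr1 (mean log2 CPM relative to the mean, no member included). That score averaged -0.11 ± 0.087 in DOX4X (SD, n = 4), 0.075 ± 0.16 in DOX1X (n = 3) and 0.051 ± 0.19 in PBS (n = 4). Across the 11 libraries 18 members had a positive and 13 a negative r with it, 3 of the 31 at an unadjusted permutation p under 0.05 and none after adjustment (smallest adjusted p = 0.341). The highest was Mdm4, with r = 0.72 and rho = 0.67 (permutation p = 0.013 and 0.029, adjusted p = 0.341 and 0.345). Without PBS 4 and DOX1X 3, the libraries farthest from the median score, the r of Mdm4 was 0.35. It was 0.84 within flow cell 1 (n = 6), 0.88 within flow cell 2 (n = 5) and 0.86 with group means removed. Ccng1 had r = 0.68 and rho = 0.63 (permutation p = 0.022 and 0.044, adjusted p = 0.341 and 0.345). Its r was 0.63 without the same 2 libraries, 0.79 within flow cell 1, 0.95 within flow cell 2 and 0.54 with group means removed. Trp53 was lowest, with r = -0.61 and rho = -0.47 (permutation p = 0.0504 and 0.146, adjusted p = 0.390 and 0.519). Its r was -0.11 without the same 2 libraries, -0.996 within flow cell 1 and -0.14 within flow cell 2. With the score as a term in the fit, the log2 fold change of Ccng1 for DOX4X against PBS was -0.16 (SE 0.066, unadjusted p = 0.034). In the same fit Btg2 had 0.59 (SE 0.12, adjusted p = 0.0925 by edgeR), the smallest adjusted p of a member there, against 0.34 without the term. Against the blood-cell score, 17 members had a positive and 14 a negative r, with Perp lowest at r = -0.71 and rho = -0.59 (permutation p = 0.017 and 0.061, adjusted p = 0.443 and 0.476), -0.55 without DOX1X 1 and DOX4X 1, and -0.86 within flow cell 1.

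Beyond the 31 members, 3 lists cover the rest of the pathway. Of 19 upstream regulators, 17 were tested, and 0 were called in any comparison by edgeR. DESeq2 called 1 of them, in DOX4X against PBS, where it called 4.02% of the genes to which it gave an adjusted p. Of the 17, 14 were above PBS in DOX4X, against 52.2% of all genes, and 14 in DOX1X, against 51.2%, with median log2 fold changes of 0.093 and 0.078. At an unadjusted p under 0.05 were 3 for DOX4X against PBS (13.9% of all genes) and 5 for DOX1X against PBS (7.16% of all genes), all higher. The smallest p for DOX4X against PBS belonged to Chek2, a kinase that phosphorylates p53 after DNA breaks. It averaged 11.6 ± 1.66 CPM in DOX4X (SD, n = 4), 10.1 ± 1.85 in DOX1X (n = 3) and 7.65 ± 0.985 in PBS (n = 4), and every DOX4X library lay above every PBS library. Its log2 fold change for DOX4X against PBS was 0.60 (SE 0.16, edgeR adjusted p = 0.155). Next were Rpl11, a ribosomal protein that can bind and block Mdm2 (0.28, adjusted p = 0.186), Chek1 (0.73, adjusted p = 0.341) and Prkdc, the DNA-dependent protein kinase (0.26, adjusted p = 0.377).

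Of 34 further p53 targets, 33 were tested, and 0 were called in any comparison by edgeR with all libraries. For DOX4X against PBS, DESeq2 called 2 of them (4.02% of all genes with an adjusted p) and edgeR without PBS 4 called 1 (0.451% of all genes). Of the 33, 22 were above PBS in DOX4X, against 52.2% of all genes, and 18 in DOX1X, against 51.2%, with medians of 0.030 and 0.053. Without PBS 4 the median for DOX4X against PBS was 0.016, and for DOX1X against PBS it was -0.00084. At an unadjusted p under 0.05 were 5 in each comparison with PBS, 2 higher and 3 lower, against 13.9% of all genes for DOX4X and 7.16% for DOX1X. Sulf2, a sulfatase that trims heparan sulfate outside the cell, had the smallest p. It stood at 12.5, 14.7, 13.4 and 19.1 CPM in DOX4X, at 16.4, 14.7 and 19.3 CPM in DOX1X, and at 28.9, 27.2, 39.0 and 20.8 CPM in PBS. All libraries of both doxorubicin groups lay below all PBS libraries, with log2 fold changes of -0.95 for DOX4X against PBS (SE 0.19, adjusted p = 0.0913) and -0.79 for DOX1X against PBS (SE 0.21, adjusted p = 0.515). Gpx1, a glutathione peroxidase that removes peroxides, averaged 328 ± 44.0 CPM in DOX4X, 295 ± 32.1 in DOX1X and 238 ± 17.0 in PBS, with 0.46 on the log2 scale for DOX4X against PBS (adjusted p = 0.116). Tnfrsf1b, a receptor of tumour necrosis factor (-0.26, adjusted p = 0.316), and the noncoding gene Pvt1 (0.58, adjusted p = 0.341) followed.

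**Figure D4:**
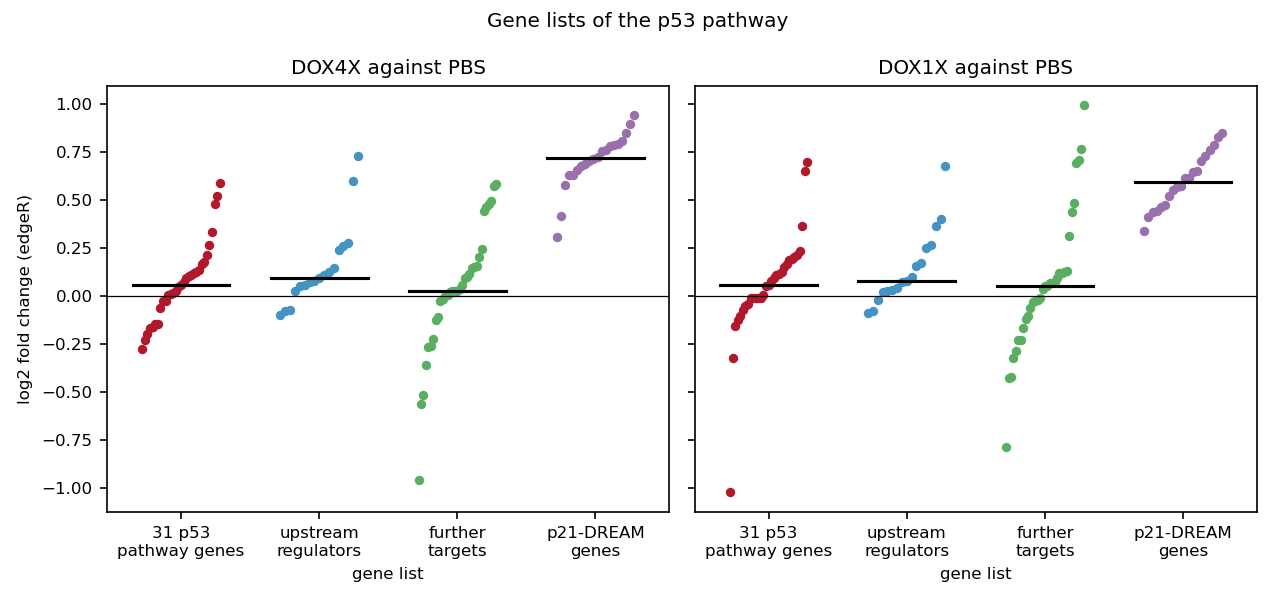
Log2 fold change in edgeR of each tested gene (points) and the median (bar) for the 31 members and the 3 other lists of the pathway, for DOX4X against PBS and DOX1X against PBS. The medians of the members and of the first 2 lists lie between 0.030 and 0.093, with 14 of 17 upstream regulators above 0 in both comparisons, whereas all 20 genes of the p21-DREAM list lie above 0, with medians of 0.72 and 0.59.

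The third list holds 20 cell cycle genes that p53 is known to lower indirectly, through p21 and the DREAM repressor complex. All 20 were higher than PBS in DOX4X and in DOX1X, with median log2 fold changes of 0.72 and 0.59, against 52.2% and 51.2% of all genes above 0. The mean log2 CPM of the 20, relative to all libraries, overlapped between the groups. It ranged over -0.49 to 0.95 in DOX4X, -0.67 to 0.60 in DOX1X and -1.29 to 0.28 in PBS. DOX4X 3 and DOX1X 3 lay below the PBS average of -0.42. None of the 20 was called in any comparison by edgeR or DESeq2. At an unadjusted edgeR p under 0.05 were 2 in each comparison with PBS, against 13.9% of all genes for DOX4X and 7.16% for DOX1X. Cdk1, the mitotic kinase, stood at 33.8, 25.7, 15.9 and 18.6 CPM in DOX4X, at 26.9, 27.5 and 14.7 CPM in DOX1X, and at 13.6, 19.9, 9.77 and 11.1 CPM in PBS. Groups overlapped, with a log2 fold change of 0.79 for DOX4X against PBS (SE 0.29, adjusted p = 0.264). Birc5, which encodes survivin, had 0.94 for DOX4X against PBS (SE 0.37, adjusted p = 0.297), and Foxm1, the mitotic transcription factor, had 0.52 for DOX1X against PBS (SE 0.24, adjusted p = 0.690). For DOX4X against DOX1X 16 of the 20 were higher, with a median of 0.11, but this direction was not stable. It was -0.20 with 1 of 20 higher without DOX1X 3, -0.15 with 4 of 20 higher without DOX4X 1, and -0.17 with 1 of 20 higher with the immediate early score in the fit. Adding flow cell to the fit, which left DOX1X 3 alone to set against DOX4X, gave 1.11, with all 20 higher.

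Blood-cell markers moved alongside this list. The blood-cell score, built from markers of red cells, B cells, neutrophils and macrophages, averaged 0.25 ± 0.56 in DOX4X (SD, n = 4), 0.42 ± 0.68 in DOX1X (n = 3) and -0.56 ± 0.45 in PBS (n = 4), on the log2 scale relative to the mean of all libraries. DOX4X 1, DOX4X 2, DOX1X 1 and DOX1X 2 were the highest 4 libraries both for this score, from 0.58 to 1.01, and for the mean of the 20 genes, from 0.59 to 0.95. With the score as a term in the fit, 8 of the 20 genes were higher in DOX4X than in PBS (median -0.045) and 1 of the 20 was higher in DOX1X than in PBS (median -0.32). Without PBS 4, the library with the lowest mean of the 20 genes, all 20 were still above 0, with medians of 0.50 for DOX4X against PBS and 0.38 for DOX1X against PBS. With flow cell as a term all 20 were above 0 as well, with larger medians of 1.92 for DOX4X against PBS and 0.93 for DOX1X against PBS. The value of 1.92 depends on DOX1X 3, the only DOX1X library on the flow cell of DOX4X. Within flow cell 1 the median was also 0.93 for DOX1X against PBS. That fit, the flow cell term and the fit without DOX1X 3 all set DOX1X 1 and 2 against PBS, so they are not separate checks. Leaving out other single libraries kept all 20 above 0. The median for DOX4X against PBS was then lowest without DOX4X 1 (0.46) and highest without PBS 2 (1.04). For DOX1X against PBS it was 0.38 without DOX1X 1 or DOX1X 2, 0.93 without DOX1X 3 and 0.91 without PBS 2. Which cells the reads of these genes came from was not tested.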

How the data were processed

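Poly(A) RNA of tdTomato-sorted cells was made into cDNA per the labels' protocols (SMART-Seq v4 Plus, an unstranded kit). The authors deposited whole-number counts per gene, not normalized. The submitters' processing notes list STAR 2.7.9a, featureCounts 2.0.1, build GRCm39, Trim Galore 0.6.6, SAMtools 1.17, FastQC 0.11.5 and MultiQC 1.7. Not given in the sources used here are the annotation, the strand setting and the handling of reads with several matches. Each of the 11 columns matched 1 sample, and replicates are separate mice per the labels.

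All 11 libraries were fitted together in edgeR 4.0.16 (R 4.3.3) with TMM factors, filterByExpr and group means. The quasi-likelihood test was two-sided, with Benjamini-Hochberg adjustment over 17838 genes and a threshold of 0.05. The SE is the absolute log2 fold change over the root of F. Levels are TMM-scaled CPM, log2 CPM has a prior count of 2, and values are mean ± SD. Permutation p-values used 100000 resamples. The edgeR fit was tested on simulated counts for DOX4X against PBS, with 200 genes set as changed. The other steps were not tested in this way. Alternatives were RLE and upper quartile scaling, no filter, a filter of 1 CPM in 3 libraries, DESeq2 1.42.0, a replicate block, flow cell, blood-cell or immediate early score as a term, fits of the compared groups alone or within a flow cell, and each library left out.

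The members, lists and alternatives were chosen with earlier results of these data known. Values in every library are given for Trp53, Mdm2, Cdkn1a and members with an unadjusted p under 0.05 in at least 1 comparison, which made 7 genes, and up to 4 genes with the smallest p are named per list. Promoter windows come from RefSeq, build GRCm38.p6, and no coordinates were converted between builds.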

Additional observations from a re-analysis of the deposited data

Results flagged for a closer look

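In groups of 4 libraries, the gap between an extreme library and its nearest neighbour was set against the group's range on the log2 CPM scale, for each member in DOX4X and in PBS. Of 70 such groups, which include the 4 scores, 5 exceeded 0.829, and chance gives about 1 in 20. Plk3 was highest in DOX4X 3, at 8.51 CPM, with a gap of 0.856 of the range. Perp was lowest in DOX4X 1, at 1.24 CPM, with a gap of 0.864. Aen was highest in DOX4X 2, at 24.1 CPM, with a gap of 0.860, and in PBS it was highest in PBS 2, at 21.4 CPM, with a gap of 0.833. Sesn1 was highest in PBS 1, at 46.6 CPM, with a gap of 0.834. On the linear CPM scale the gap of Perp was 0.780, below the critical value, while the other 4 groups named here stayed above it.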

How the results depend on the processing

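No member was called in any comparison under any of the alternatives run, DESeq2 included. The smallest adjusted p of any member was 0.0572, for Ccng1 with DESeq2 in DOX4X against PBS. Ccng1 stayed lower in DOX4X than in PBS under all 21 alternatives, from -0.23 to -0.13 on the log2 scale, and Ei24 likewise, from -0.19 to -0.070. A within-flow-cell fit could not be made for DOX4X against PBS. Causes of the shifts below were not tested.

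The labels state no pairing of samples by replicate number. Deviations of same-numbered libraries correlated from -0.12 to 0.35, with 2 of 10 pairs over 0.1, and those of other pairs from -0.35 to 0.35, with 8 of 30 over 0.1. So few pairs cannot settle whether samples were paired. With the replicate block, the number of genes called was 10 for DOX4X against PBS (26 without it), 6 for DOX1X against PBS (1 without it) and 2 for DOX4X against DOX1X (1 without it), and the log2 fold change for DOX1X against PBS turned to 0.016 for Mdm2 and 0.0024 for Ccng1.

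Genes called for DOX4X against PBS numbered 6 with flow cell as a term, 2 with the blood-cell score, 0 with the immediate early score, 1 in a fit of the compared groups alone and 590 with DESeq2. For DOX1X against PBS they numbered 5 within flow cell 1 and 49 with DESeq2, and for DOX4X against DOX1X 27 with DESeq2. The members' median became -0.034 for DOX4X against PBS with flow cell as a term, 0.11 for DOX1X against PBS with the blood-cell score and 0.095 for DOX4X against DOX1X with the immediate early score.

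Single log2 values near 0 changed sign. For DOX1X against PBS, flow cell as a term gave 0.0085 for Mdm2, 0.012 for Ccng1, 0.045 for Trp53, -0.093 for Cdkn1a and 0.014 for Ei24. Flow cell 1 alone gave 0.0052 for Mdm2, 0.0095 for Ccng1, 0.043 for Trp53, -0.097 for Cdkn1a and 0.011 for Ei24. Both settings set DOX1X 1 and 2 against PBS, so their like values are not separate checks. Mdm2 was 0.00039 with the filter of 1 CPM, and Trp53 0.0092 with the immediate early score. For DOX4X against PBS, the blood-cell score gave -0.019 for Trp53 and -0.036 for Mdm2, and the immediate early score -0.016 for Trp53 and 0.13 for Cdkn1a. For DOX4X against DOX1X, Psrc1 was 0.066 with a flow cell term, 0.071 within flow cell 2, and with the immediate early score Trp53 was -0.025 and Cdkn1a 0.048.

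With 1 library left out at a time, genes called for DOX4X against PBS ran from 0 (without DOX4X 1, 2 or 3) to 80 (without PBS 4), with 47 without DOX1X 3, and those for each other comparison from 1 to 2. The members' median ran from 0.047 to 0.12 for DOX4X against PBS, from -0.0083 (without PBS 2) to 0.10 for DOX1X against PBS and from -0.062 to 0.026 (without DOX1X 3) for DOX4X against DOX1X. Log2 values for DOX4X against PBS ran from -0.017 to 0.065 for Mdm2, from -0.0060 to 0.15 for Trp53 and from -0.14 to 0.21 for Cdkn1a. For DOX1X against PBS they ran from -0.065 to 0.033 for Mdm2, from -0.090 to 0.062 for Trp53, from -0.093 to 0.36 for Cdkn1a, from -0.042 to 0.025 for Ccng1 and from -0.053 to 0.023 for Ei24. For DOX4X against DOX1X they ran from -0.0066 to 0.089 for Mdm2, from -0.35 to 0.070 for Cdkn1a and from -0.37 to 0.020 for Psrc1.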
